A study of Mus musculus with 4 samples.

Results

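Collagens, laminins and the other structural and adhesive proteins of the extracellular matrix were followed through hapten-induced colitis in mouse colon. The genes were taken by symbol: every collagen chain, laminin chain, thrombospondin, fibulin, fibrillin and gene whose symbol begins with Lox, plus Fn1, Tnc, Sparc, Postn, Dcn, Lum, Bgn, Nid1 and Nid2. This gave 74 of the 16637 named genes on the arrays. They comprised 11 fibrillar collagens, 20 basement membrane genes, 7 matricellular genes, 22 other collagens, 5 microfibril and elastic fibre genes, 4 lysyl oxidases, and 4 genes of fibronectin and the small proteoglycans. Loxhd1 shares only its first letters with the lysyl oxidases and was counted apart. Lox itself and Col6a1 were not analysed here.

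The colons came from female mice on day 7, with 24 mice in 4 groups of 6. The mock group received 0.1 ml of vehicle with 50% ethanol, and TNBS mice were given 250 mg/kg of trinitrobenzene sulfonic acid, the hapten that provokes colitis, in that vehicle. In the other groups the same dose of TNBS was mixed with ginger extract or with zingerone, a phenolic ketone of ginger. The ethanol vehicle was therefore common to every group, mock included. The strain is labelled BALB/c for the mock sample and BALC/c for the other 3. The labels do not state the age of the mice, and the amounts of ginger extract and zingerone varied within the groups without being tied to an array. Whether an array held RNA of a single mouse or a pool is also not stated.

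Each group was measured on 1 Cy3 array, so no value has a replicate error and no p-value can be given. Precision is limited by having so few arrays. Fluorescence intensities were compared on the log2 scale, and "higher" and "lower" below stand for a difference of at least 2-fold unless a smaller fold is given. Measured genes are those as bright as the median named probe (270.5 on the mock array) on 1 or more arrays. The 4 arrays share nearly 1 distribution of intensities, with medians between 238 and 238.25. Intensities of different genes are not compared, since each depends on its own probe. The epithelial genes Epcam and Cdh1, markers expected in colon, had their lowest values on TNBS, 16459.7 and 8217.3, far above the filter.

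The extracellular matrix of the gut has several layers of function. Fibrillar collagens form the load-bearing fibres of the submucosa and lamina propria. Type IV collagen and laminins build the basement membrane under the epithelium and around vessels, with nidogens linking the networks. Matricellular proteins such as tenascin-C, SPARC and periostin bear little load, and are known for their appearance in wounds, where they modulate adhesion and growth factor signals.

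On the TNBS array the genes that rose past 2-fold were mostly of basement membranes and of the matricellular group, and no fibrillar collagen did so in the mean of its probes, although the brighter of 2 Col3a1 probes was 2.14-fold higher. Of the 74 genes, 45 were measured. Among these, 8 were higher on the TNBS array than on the mock array: Lama3, Tnc, Col4a1, Col4a2, Col18a1, Sparc, Fbn1 and Col16a1. The other 2 past the threshold, Thbs4 and Col9a1, were lower. Over all 10056 measured genes, 5.08% were higher and 4.52% lower, against 17.8% and 4.44% of the 45. With no filter, 8 of 74 matrix genes stood beside 3.1% of all 16637 named genes for increases, and 2 of 74 beside 2.74% for decreases. A gene that was measured only through the array where it was bright was bound to differ, so the shares of the 45 are descriptions. The median log2 difference of the 45 was 0.16, and that of all measured genes was -0.04. With no filter it was 0.03 for the 74 genes and -0.02 for all named genes. Class medians below are also of measured genes. Unfiltered, they were -0.11 for fibrillar collagens, 0.10 for basement membrane and 0.25 for matricellular genes.

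**Figure D1:**
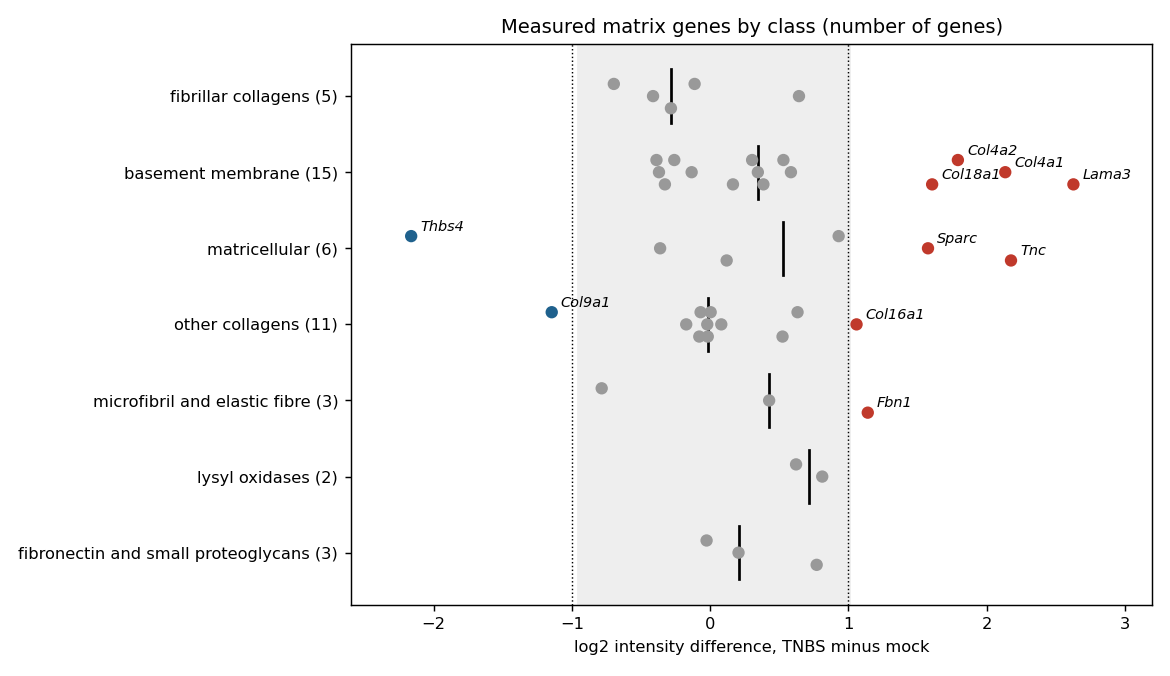
Each point is 1 measured matrix gene, placed by its log2 intensity difference between the TNBS and mock arrays, with the number of measured genes beside each class name. Black bars mark class medians, dotted lines 2-fold, and the grey band runs from the 5th to the 95th percentile of all measured genes (-0.95 to 1.01). Red points (higher) lie in the basement membrane, matricellular, other collagen and microfibril classes, and the 5 fibrillar collagens all lie inside the band.

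In the mean of their probes, the 29 genes below the filter were dim and flat. Their mean intensities ran from 101.2 to 262.7, and none differed by more than 1.48-fold between any pair of arrays. Single probes could be brighter: 1 of Loxhd1 read 505.75 on mock, and 1 of Col5a2 read 501.75 on TNBS, 1.62-fold above mock. They include 6 fibrillar collagens, 5 basement membrane genes, 11 other collagens, the matricellular gene Thbs1, and Lum, which encodes lumican. Deposited intensities carry a visible background, the lowest being 74.25, and a difference in such dim genes would be compressed.

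The 5 measured fibrillar collagens stayed within 2-fold of mock in the mean of their probes, and did not all share a direction on TNBS. Col1a1, which encodes the α1 chain of type I collagen, read 300 on mock, 277.5 after TNBS, 254.5 with ginger and 288.2 with zingerone, and stayed close to the filter throughout. Col1a2, which encodes the partner chain, read 1888.3, 1164.8, 1147.3 and 1745.5 in the same order. It was lower by 1.62-fold on TNBS and 1.65-fold on ginger than on mock, with zingerone near mock. Col5a1, a type V chain that nucleates type I fibres, read 483.7, 363.3, 340.8 and 513.5. Both of these chains were thus low on the TNBS and ginger arrays and near mock on zingerone, all within 2-fold. Col5a3, another type V chain, read 820.5, 674, 608.5 and 726.5, highest on mock and lowest on ginger. Of the 5 measured fibrillar genes, 4 were below mock on TNBS, with a class median of -0.28.

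Col3a1 was the fibrillar gene above mock on TNBS, and its 2 probes disagreed in size. The bright probe read 6215 on mock, 13300.25 after TNBS, 8474.25 with ginger and 9370.25 with zingerone, which is 2.14-fold higher on TNBS. The dim probe read between 167.5 and 190.75 on every array. Their mean on the log2 scale gives 1.56-fold, so type III collagen passes 2-fold only where the brighter probe stands for the gene. Col5a2 was similar but dimmer: of its 3 probes the brightest read 310 on mock and 501.75 on TNBS, and the gene as a whole stayed below the filter.

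Basement membrane genes, the largest measured class, held 4 of the 8 increases. That is 4 of 15 measured genes (26.7%), beside 2 of 6 matricellular genes (33.3%) and 5.08% of all measured genes. Lama3 encodes the α3 chain of laminin-332, which anchors epithelial cells through hemidesmosomes. It read 530 on mock, 3276.5 after TNBS, 1400.9 with ginger and 1019.5 with zingerone. The TNBS value was 6.18-fold above mock, and 86 of the 10056 measured genes had a larger increase. Ginger stayed 2.64-fold above mock, the 1 matrix gene higher on that array (1.62% of all measured genes were), and zingerone 1.92-fold. Lamb3, the β3 chain of the same laminin, differed less: 3186.5 on mock, 4601 after TNBS, 4150.2 with ginger and 3277.4 with zingerone.

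Col4a1 and Col4a2 encode the chains of the most widespread type IV collagen trimer. Col4a1 read 602 on mock, 2644.1 after TNBS, 961.1 with ginger and 1002.5 with zingerone. Col4a2 read 1955.4, 6773, 2838.2 and 2947.5 in the same order. The pair kept nearly the same proportions: 4.39-fold and 3.46-fold higher on TNBS than on mock, then 2.75-fold and 2.39-fold lower on ginger than on TNBS, and 2.64-fold and 2.30-fold lower on zingerone than on TNBS. They are neighbours on opposite strands of chromosome 8, and in RefSeq (GRCm38.p6) their annotated transcripts overlap head to head by 22 bases. Because of that overlap, the 250 bases before each start lie past the start of the partner gene. Each stretch held a CCAAT box, which 33.8% of all 32851 promoter windows did. Of the other type IV chains, Col4a5 was within 1.30-fold between any pair of arrays in the mean of its 2 probes. Its bright probe read 8290 on mock, 5253.25 on both TNBS and ginger and 4515.75 on zingerone, highest on mock and 1.84-fold lower on zingerone, while its dim probe read between 181 and 239.5. The chains Col4a3, Col4a4 and Col4a6 were below the filter.

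Col18a1, whose product is a basement membrane collagen and the source of endostatin, read 566.3 on mock, 1723.8 after TNBS, 1036.2 with ginger and 984.7 with zingerone. It was 3.04-fold higher on TNBS, and stayed 1.83-fold and 1.74-fold above mock on the ginger and zingerone arrays. The related Col15a1 lay between 421.8 and 496.6 on the 4 arrays. Nid1 and Nid2, the nidogens that bridge laminin and type IV collagen, were highest on TNBS, at 639 and 463 against 517.8 and 354.5 on mock, within 2-fold.

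The remaining laminin chains moved in different ways, all within 2-fold of mock and TNBS. Lamb1 read 444 on mock, 665.7 after TNBS, 372.8 with ginger and 456.8 with zingerone, so TNBS stood highest. Lamc1, the most widely used γ chain, read 379.2, 302.2, 297.5 and 529, so zingerone stood highest and was 1.78-fold above ginger. Lamb2 read 579.5, 736, 1026.2 and 1087.3, and was highest on both arrays with a ginger product. Lama5, the main α chain of mature epithelial basement membrane, was dim, between 209.3 and 273.3. Lama4, an α chain of vessel basement membranes, read 615.3, 470, 511.4 and 699.3, lowest on TNBS. Lamc3 read 267.8, 244, 312.5 and 412, and like Lamc1 and Lama4 had its highest value on zingerone. Across the class, the median of the 15 measured genes was 0.34 for TNBS minus mock, -0.24 for ginger minus TNBS and -0.49 for zingerone minus TNBS.

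**Figure D2:**
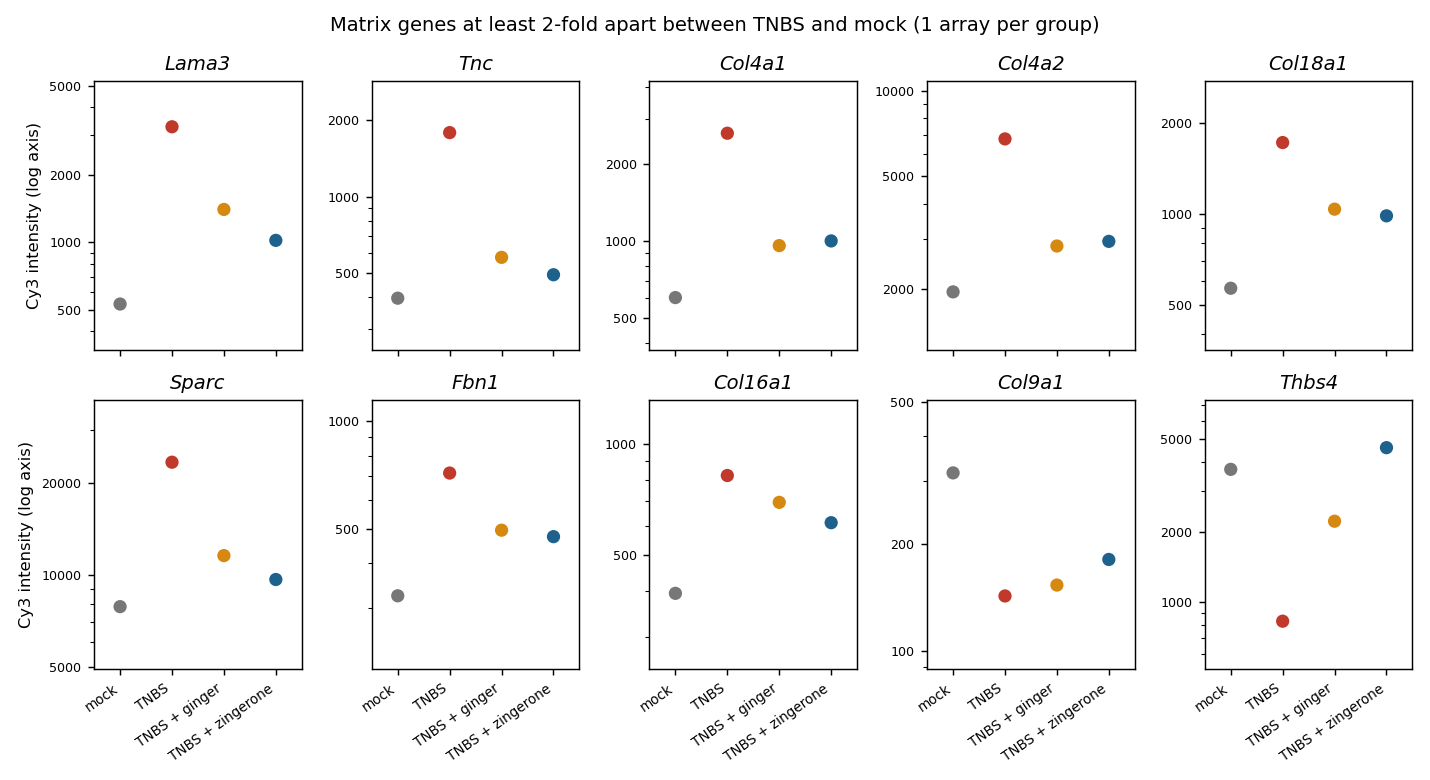
Cy3 intensity on each of the 4 arrays for the 10 matrix genes at least 2-fold apart between TNBS and mock. Each panel has its own logarithmic axis, each point is 1 array, and there are no replicates. In the 8 genes that were higher on TNBS, the ginger and zingerone points lie between mock and TNBS, while Thbs4 is lowest on TNBS and highest on zingerone.

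Matricellular genes showed differences in both directions. Tnc, which encodes the wound matrix glycoprotein tenascin-C, read 396 on mock, 1790.3 after TNBS, 574.5 with ginger and 490.3 with zingerone. It was 4.52-fold higher on TNBS than on mock, then 3.12-fold lower on ginger and 3.65-fold lower on zingerone than on TNBS. Sparc, whose product binds collagen and aids its assembly, read 7864 on mock, 23447 after TNBS, 11570.2 with ginger and 9656.8 with zingerone, which is 2.98-fold higher on TNBS. Postn, the gene of periostin, missed the threshold at 1.91-fold: it read 1842.2, 3509.4, 2475.8 and 1796.5 in the same order. In all 3 genes TNBS was highest and ginger above zingerone.

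Thbs4, which encodes a pentameric thrombospondin of muscle and connective tissue, ran the other way. It read 3715.5 on mock, 829.5 after TNBS, 2226.5 with ginger and 4603.3 with zingerone. It was 4.48-fold lower on TNBS than on mock, and 41 of the 10056 measured genes had a deeper decrease. Against TNBS it was 2.68-fold higher on ginger and 5.55-fold higher on zingerone. Zingerone exceeded ginger 2.07-fold, and no other matrix gene differed 2-fold between those arrays, where 0.746% of all measured genes were higher on zingerone and 0.358% lower. The thrombospondin relatives did not share this: Thbs3 read 545.9, 424.7, 390.7 and 412, and Thbs2, with 2 dim probes, 244.2, 265.3, 226.9 and 327.4. The median of the 6 measured matricellular genes was 0.52 for TNBS minus mock and -0.36 for ginger minus TNBS.

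The 250 bases before the annotated start of the 3 matricellular genes past 2-fold are shown from RefSeq (GRCm38.p6), 5′ to 3′ on the minus strand of each, since Thbs4 moved against the other pair. Tnc lies at chr4:64047016-64047265 (the more upstream of 2 annotated starts), Sparc at chr11:55420081-55420330 and Thbs4 at chr13:92794819-92795068. Capitals mark matches, on either strand, to the TATA box (TATAAA), the GC box (GGGCGG), the CCAAT box, the AP-1 site (TGANTCA), the NF-κB consensus or the CArG box, and no matches overlap.
Tnc: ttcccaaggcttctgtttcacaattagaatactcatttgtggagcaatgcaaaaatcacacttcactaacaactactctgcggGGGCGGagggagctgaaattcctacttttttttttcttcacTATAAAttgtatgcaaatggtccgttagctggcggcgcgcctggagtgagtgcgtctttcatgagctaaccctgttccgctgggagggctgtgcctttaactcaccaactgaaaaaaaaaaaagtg
Sparc: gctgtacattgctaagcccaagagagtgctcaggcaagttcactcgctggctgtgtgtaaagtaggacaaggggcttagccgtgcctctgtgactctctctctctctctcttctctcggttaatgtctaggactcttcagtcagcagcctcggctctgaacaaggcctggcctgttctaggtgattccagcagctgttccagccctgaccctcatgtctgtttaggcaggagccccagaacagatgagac
Thbs4: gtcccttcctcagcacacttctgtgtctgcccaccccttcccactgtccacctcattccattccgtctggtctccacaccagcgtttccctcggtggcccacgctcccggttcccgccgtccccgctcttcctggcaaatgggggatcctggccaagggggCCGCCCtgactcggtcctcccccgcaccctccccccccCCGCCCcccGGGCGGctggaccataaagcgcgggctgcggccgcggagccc
The Tnc window held a TATA box 126 bases before the start and a GC box at 167. The Thbs4 window held 3 GC boxes within 89 bases of the start, and the Sparc window held none of these motifs. Such matches are descriptions of the windows, and a missing match says only that the letters are absent from these bases.

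Promoter windows were found for 50 of the 74 genes, 57 windows in all. A GC box stood in 57.9% of them against 32.7% of all windows, a TATA box in 15.8% against 12.4%, and a CCAAT box in 31.6% against 33.8%. The NF-κB consensus stood in 7 of the 57 (12.3%, against 3.9% of all windows), in the genes Col27a1, Col6a4, Col9a1, Col9a2, Lamb3, Loxl4 and Thbs2. None of these was among the 8 genes higher on TNBS, of which 7 had a window. Such an absence is likely by itself for so few genes and so rare a motif, and says nothing about the increases. The AP-1 site stood in 0 of the 57 windows and in 6.75% of all windows, and the CArG box in 3.51% against 1.47%.

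Among the other collagens, 1 gene was higher and 1 lower on TNBS. Col16a1, a collagen that sits on the surface of fibrils, read 394.3 on mock, 821.5 after TNBS, 695 with ginger and 612.3 with zingerone, 2.08-fold higher on TNBS. Col9a1, a chain of the cartilage collagen type IX, was 2.21-fold lower on TNBS and 2.06-fold lower on ginger than on mock. That rests on 1 of its 2 probes, which was bright on the mock array alone: 763.4 there, and 163, 181.75 and 169.75 on TNBS, ginger and zingerone. The second probe read 130.5, 124.75, 128.75 and 192, so Col9a1 is uncertain. Col14a1, another fibril-associated collagen, was highest on zingerone, at 394 against 242.5 on mock, 239 on TNBS and 261.5 on ginger. Col8a1, a short-chain collagen of vessels, read 229.2, 355.2, 308.1 and 301.8, and Col20a1 read 498.2, 716.3, 476.3 and 541.5. Both were highest on TNBS, within 2-fold. The median of the 11 measured genes of this class was -0.02 for TNBS minus mock. The type VI chains Col6a2 and Col6a3 lay within 1.44-fold and 1.13-fold across all arrays.

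Fbn1, which encodes the microfibril protein fibrillin-1, read 324.2 on mock, 714.7 after TNBS, 494.7 with ginger and 474.5 with zingerone, 2.20-fold higher on TNBS. Fbln1, which encodes fibulin-1 of elastic fibres and basement membranes, was opposite in direction and within 2-fold, at 719.5, 417.6, 642.6 and 709.3. One of its 2 probes fell from 744.25 to 328.25, the other from 695.5 to 531.25. Fbln2 read 269.1, 361.8, 304 and 269.7, highest on TNBS, and the median of the 3 measured genes was 0.43 for TNBS minus mock.

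Lysyl oxidases crosslink collagen and elastin. The mean of the 2 Loxl2 probes was 1.75-fold higher on TNBS (392.7 on mock, 688.9 on TNBS, 427.4 on ginger, 391.7 on zingerone). Its brighter probe read 553.25 on mock and 1117.25 on TNBS, 2.02-fold higher, and the dimmer one 278.75 and 424.75. Both Loxl2 probes thus agreed in direction. For Loxl1 they did not: 1 probe read 696.5 on mock and 2097.5 on TNBS, the other 3179.5 and 2499. No direction can be given for Loxl1. Fn1, the gene of fibronectin, read 285.7, 487.5, 450 and 377.5, 1.71-fold higher on TNBS. The proteoglycan gene Bgn stayed between 2207.2 and 2927.6. Dcn, the gene of decorin, has 3 probes, of which the bright one read 2216.5 on mock, 3149.5 after TNBS, 1255.5 with ginger and 1097.25 with zingerone. By that probe decorin was 2.51-fold lower on ginger and 2.87-fold lower on zingerone than on TNBS, and 2.02-fold lower on zingerone than on mock, while the mean of all 3 stayed within 2-fold.

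**Figure D3:**
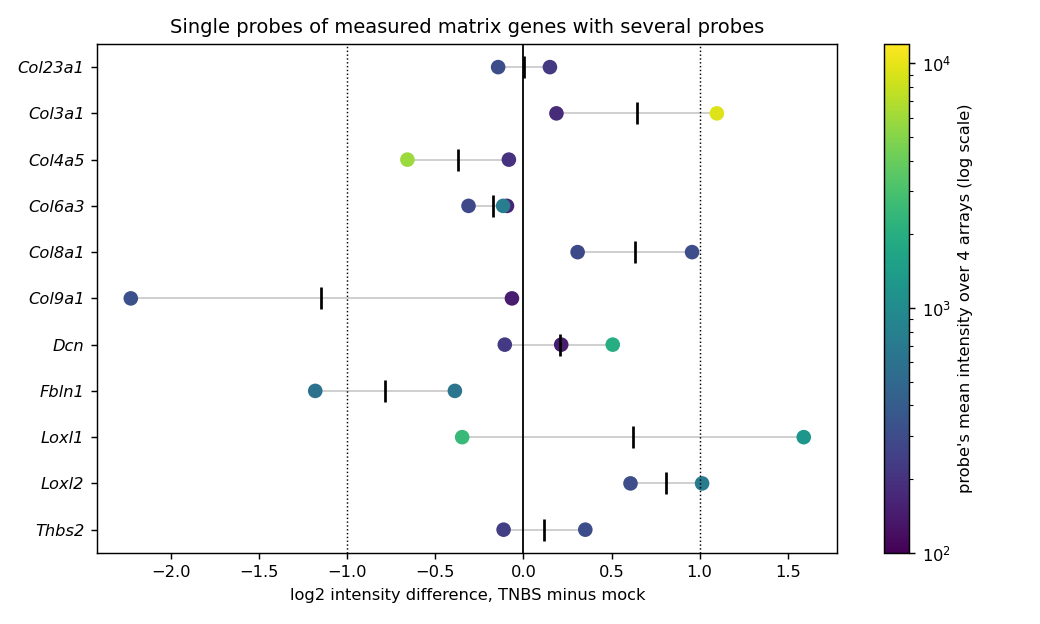
Each point is 1 probe of a measured matrix gene with several probes, placed by its log2 difference between TNBS and mock and coloured by its mean intensity on a logarithmic scale. Short black bars mark the gene's mean and dotted lines 2-fold. The Loxl1 probes stand on opposite sides of 0, the Col9a1 probes are 2.16 apart, and the bright Col3a1 probe lies past 2-fold while the dim one lies near 0.

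Of the 45 measured genes, 11 have several probes, and in 4 of them (Col23a1, Dcn, Loxl1 and Thbs2) the probes differ in sign for TNBS minus mock. The gap between a gene's probes had a median of 0.61 on the log2 scale in these 11, and of 0.40 over 1775 measured genes with 2 probes, with a 95th percentile of 1.35. Apart from Col9a1, every gene past 2-fold between TNBS and mock has 1 probe, so none of those values has a second probe to set it against.

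Ginger extract and zingerone, each given together with TNBS, were compared with TNBS alone. With ginger, Tnc (3.12-fold), Col4a1 (2.75-fold), Col4a2 (2.39-fold), Lama3 (2.34-fold) and Sparc (2.03-fold) were lower than with TNBS alone, and Thbs4 was higher, so 5 of 45 were lower and 1 higher. With zingerone, Tnc (3.65-fold), Lama3 (3.21-fold), Col4a1 (2.64-fold), Sparc (2.43-fold) and Col4a2 (2.30-fold) were lower and Thbs4 was higher, again 5 and 1. Among all measured genes 2.48% were lower and 1.35% higher on ginger, and 2.96% and 4.57% on zingerone. Both comparisons use the same TNBS array, and all 6 genes were also past 2-fold between TNBS and mock. The median over the 45 was -0.15 for ginger and -0.19 for zingerone, against 0.02 and -0.02 for all measured genes.

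The differences of the treated arrays from mock leave the TNBS array out, but the percentages below do not, since they divide by TNBS minus mock. On ginger, Lama3 was higher than mock and Col9a1 lower, and the other 43 measured genes were within 2-fold. On zingerone all 45 were within 2-fold, where 1.53% of all measured genes were higher than mock and 1.05% lower. The ginger background for decreases was 1.08%. For the 8 genes higher on TNBS, the ginger array kept between 24.7% (Tnc) and 77.2% (Col16a1) of the log2 increase, and the zingerone array between 14.2% (Tnc) and 60.0% (Col16a1). All 8 lay above mock on both treated arrays, but they had been picked by TNBS minus mock, so a low value on the single mock array or a high one on TNBS would favour that placement. For Thbs4, 34.2% of the decrease was left on ginger, and zingerone stood 1.24-fold above mock.

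**Figure D4:**
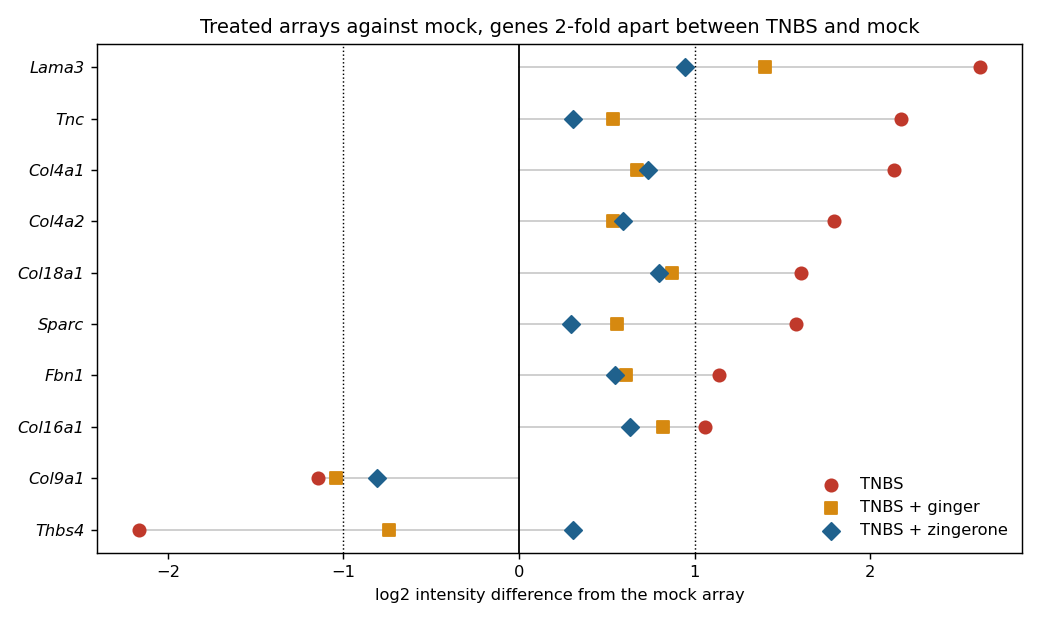
Log2 intensity difference from the mock array for the 10 matrix genes 2-fold apart between TNBS and mock. Circles are TNBS, squares TNBS with ginger, diamonds TNBS with zingerone, dotted lines 2-fold, and all 3 share 1 mock array. Lama3 on ginger (1.40) is the treated point farthest above mock, and Thbs4 crosses from -2.16 on TNBS to 0.31 on zingerone.

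Between ginger and zingerone, 1 of 45 matrix genes passed 2-fold, Thbs4 (2.07-fold higher on zingerone), beside the 0.746% of all measured genes given above. Lamc1 followed at 1.78-fold higher on zingerone. Col4a1 and Col4a2 were within 1.04-fold, Col18a1 within 1.05-fold and Fbn1 within 1.04-fold. Tnc, Sparc and Lama3 were lower on zingerone, by 1.17-fold, 1.20-fold and 1.37-fold. All 5 measured fibrillar collagens were above ginger on zingerone, by 0.06 to 0.61 on the log2 scale. Col1a2 (1.52-fold) and Col5a1 (1.51-fold) led them, beside a median of -0.03 for all measured genes, and no fibrillar gene passed 2-fold.

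Genes for making and secreting collagen, which lie outside the 74 genes, were higher on TNBS in 3 of 13 measured cases and lower in 0, beside 5.08% and 4.52% of all measured genes. P4ha1, a prolyl 4-hydroxylase subunit needed for a stable triple helix, was 2.68-fold higher. The lysyl hydroxylase Plod1 was 2.24-fold higher and the collagen chaperone Serpinh1 2.15-fold. P4ha1 and Serpinh1 were 2.13-fold lower on zingerone than on TNBS, and 1.69-fold and 1.70-fold lower on ginger. The list's median was 0.13 for TNBS minus mock.

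Genes of TGF-β signalling, the main inducer of matrix in fibroblasts, were higher in 2 of 13 measured cases and lower in 0, beside 5.08% and 4.52% of all measured genes, and their median was 0.25. Ccn2, a connective tissue growth factor gene and TGF-β target, read 491.2 on mock, 5439.5 after TNBS, 1272.6 with ginger and 1410.3 with zingerone, 11.1-fold higher on TNBS. Tgfbi was 4.25-fold higher. No measured ligand, receptor, Smad or Ltbp gene of this list passed 2-fold. The ligand gene Tgfb1 differed by less than 2-fold, at 344.8, 411.2, 485 and 405.5. Of 20 other measured matrix proteins 4 were higher and 1 lower (median 0.20), against the same shares of all measured genes. The osteopontin gene Spp1 was 15.3-fold higher, Ecm1 5.90-fold, the elastic fibre genes Emilin2 2.28-fold and Efemp2 2.13-fold, and Smoc2 2.17-fold lower. Against TNBS, Spp1 was 4.07-fold lower on ginger and 5.57-fold on zingerone, and Ecm1 2.29-fold and 3.75-fold.

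**Figure D5:**
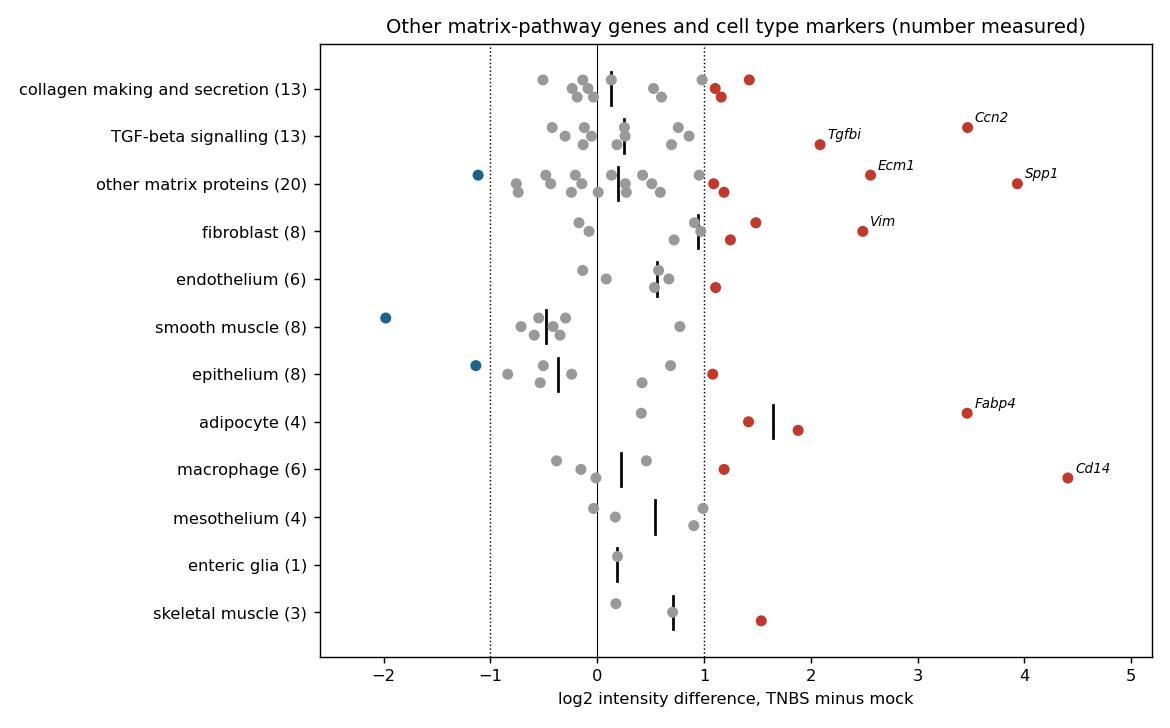
Log2 differences between TNBS and mock for measured genes of the matrix-pathway and cell type marker lists, with the number measured beside each name. Red and blue points are past 2-fold, black bars are list medians, and the genes farthest from 0 are named. Spp1, Ccn2, Vim, Fabp4 and Cd14 stand far to the right, and most smooth muscle markers lie left of 0.

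Markers of several cell types moved with these genes, and in whole tissue, fewer cells of a type and less RNA per cell cannot be told apart. Summed over 8 measured fibroblast markers, intensity was 6895 on mock, 24706 after TNBS, 10552 with ginger and 9316 with zingerone. Of the TNBS sum, 18998.5 was Vim, which leukocytes and endothelium also express, and 3 of the 8 were higher on TNBS (median 0.94). The 6 endothelial markers summed to 2701, 4033, 3117 and 3031 in the same order, with 1 higher (Eng) and a median of 0.56. Macrophage markers summed to 3252, 30499, 6097 and 6069, but Cd14 alone was 28071 of the TNBS sum. Of the 6, Cd14 and Cd68 were higher on TNBS, 3 lay above mock and 3 below (Adgre1, Itgam and Mrc1), and the median was 0.22. Adipocyte markers summed to 9197, 63106, 15399 and 27600, with 3 of 4 higher and 45905.8 of the TNBS sum from Fabp4, and mesothelial markers to 1314, 1868, 1740 and 1700, with 0 of 4 past 2-fold. These sums were highest on TNBS, as were Col4a1, Tnc and Sparc, and their part in those values was not tested.

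Smooth muscle markers, of which 7 of 8 were below mock on TNBS and 1 (Smtn) past 2-fold, summed to 21192 on mock, 16837 after TNBS, 16814 with ginger and 9959 with zingerone. Thbs4 had its highest value on the zingerone array, where that sum was lowest. Single markers did not all follow the sum: Smtn, like Thbs4, was lowest on TNBS, at 488.2 against 780.9 on zingerone. The part of muscle content in the Thbs4 values was not tested. Much of the sum was Actg2, at 8530.8 on TNBS and 4090.8 on zingerone. Against TNBS, 4 of the 8 markers were above and 4 below on zingerone, with a median of -0.01. Against mock, all 8 were below on zingerone, with a median of -0.56. The 8 epithelial markers summed to 109232, 119648, 134685 and 132195, with 1 higher (Krt18) and 1 lower (Cdx2) on TNBS. That sum ran against most of its list: 5 of the 8 were below mock on TNBS, with a median of -0.37, while Krt8, Krt18 and Krt20 were above. The skeletal muscle sum was 790, 1495, 1200 and 1600 over 3 measured markers. The zingerone sum was highest through Acta1 (1122.2), while Ckm and Tnnt3 were lower there than on TNBS, at 195.5 and 282.3 against 293 and 432.7. The 1 measured glial marker, Sox10, read 383.2, 436.2, 371.2 and 304.8. The part of these cells in the matrix values was not tested.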

How the data were processed

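Cy3-labelled amplified RNA from 5 µg of total colon RNA was hybridised to 1-colour arrays, 1 per group, per the labels. The authors' deposited table holds a linear Cy3 intensity for 29922 probes. The submitters' processing notes name limma without version or role. No source used here states the scanner, the background correction or the normalization. The sorted columns differ by at most 1.84%, as after quantile normalization, and the top value of 64634 lies near a 16-bit limit.

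The platform annotation names 1 gene for 21020 probes, several for none and none for 8902. Of these symbols 17558 were current in the RefSeq table (GRCm38.p6), 3410 were updated through synonyms and 52 were kept. Python 3.11.15, pandas 2.3.3 and numpy 2.4.6 were used. The log2 of each intensity was used, without pseudocount, and averaged over the probes of a gene. No test was run. Code was tested on simulated data. Genes named are a set list of members, every member past 2-fold in any comparison, and genes past 2-fold in the pathway lists. Genes named beyond these, with probe-level values, were chosen after their values were seen. The members and lists were chosen with earlier results of these data known. The 8 alternative settings are given at the end.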

Additional observations from a re-analysis of the deposited data

How the results depend on the processing

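Counts of matrix genes past 2-fold were recomputed under 8 settings: the arrays quantile-normalized, their medians made equal, values floored at the 25th percentile, the 5th percentile subtracted (values under 50 raised to 50), no filter, a stricter filter (75th percentile), each gene read from its brightest probe, and probes removed that stood apart on 1 array (at least 4-fold from the others, which lay within 0.5 on the log2 scale). Of the recomputed counts, 86 stayed within 1.5 times the reported one and 10 did not. Among the 86, increases for TNBS against mock were 10 with the brightest probe and 11 with the 5th percentile subtracted, in place of 8. The shares of all genes were 5.58% and 8.61%. With the 5th percentile subtracted, increases were 5 in place of 1 for zingerone against TNBS, 4 in place of 1 for ginger against mock, 3 in place of 0 for zingerone against mock and 3 in place of 1 for zingerone against ginger, and decreases 1 in place of 0 for zingerone against mock. With the brightest probe, zingerone against mock had 2 decreases in place of 0, beside 1.12% of all genes. With the stricter filter, and with probes standing apart removed, Col9a1 left. Decreases were then 1 in place of 2 for TNBS against mock and 0 in place of 1 for ginger against mock. In that order of settings, the shares of all genes were 7.85% and 4.46% for TNBS, and 1.86% and 1.01% for ginger. Background subtraction widens differences of dim genes by construction, and with the 5th percentile subtracted the shares of all genes behind its 5 moved counts were 9.7%, 2.98%, 3.82% and 3.16% for the increases and 1.96% for the decreases, in the order given. No call changed sign. Of the recomputed class medians, 326 stayed within 0.40 of the reported one on the log2 scale and 10 did not. With the stricter filter, that of the other collagens was 0.79 in place of -0.02 for TNBS minus mock. Of 25 calls (a gene in a comparison), 23 were kept in all 8 settings, and the other 2 are those of Col9a1. Several settings could hardly remove a call. The arrays already shared nearly 1 distribution, and every called gene but Col9a1 has 1 probe. Dropping the filter cannot remove a call, and background subtraction widens folds. Neither the 23 kept calls nor the 86 counts therefore measure how firm the values are. No paired analysis was possible because each group has 1 array. The common distribution of the arrays and the visible background limit folds of dim genes.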

Other observations

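Across the 45 measured matrix genes, 23 had their highest value on the TNBS array, 10 on mock, 9 on zingerone and 3 on ginger. The lowest value fell on mock for 14, on ginger for 13, on zingerone for 10 and on TNBS for 8. The same counts were not made over all measured genes, so they do not set the matrix genes apart from the rest. A single Thbs2 probe read 397.25 on zingerone and between 183 and 203.5 on the other 3 arrays, while the second Thbs2 probe read 269.75 on zingerone and 293 on mock.

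Several matrix genes lie next to each other in the RefSeq gene order, and these neighbours did not all move as Col4a1 and Col4a2 did. On the log2 scale, TNBS minus mock was 0.64 for Col3a1 and 0.21 for its neighbour Col5a2, 0.21 for Dcn and -0.29 for Lum, and -0.37 for Col4a5 and -0.09 for Col4a6. In each of these pairs the second gene was below the filter.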
